A study of Mus musculus with 4 samples.

Results

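The genes described here are the Fox genes, which encode the forkhead transcription factors, and the Sox genes, which encode the SRY-related HMG-box transcription factors. They were taken from a RefSeq gene table of the mouse GRCm38.p6 assembly (the build called mm10) as all protein-coding genes on chromosomes 1 to 19 whose symbol is Fox, a letter and a number, or Sox and a number. This gave 59 genes, 41 Fox and 18 Sox, of 20665 protein-coding genes on these chromosomes. Foxo4, Foxp3, Foxr2 and Sox3 lie on chromosome X and were left out by this rule. A CTCF region was assigned to a gene when its summit lay within 50 kb of the gene span. By this rule 150 of 20043 regions in the control list, beside 120 of 16128 regions in the list labelled CTCF knockout lay near a Fox or Sox gene.

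The authors immunoprecipitated CTCF with its bound DNA and sequenced that DNA (ChIP-seq), starting from left ventricular cardiac myocytes of C57BL/6 mice. The control group was 1 library with the genotype control, and the other group was 1 library with the genotype CTCF_knockout, each made from the pooled myocytes of 3 hearts. The sources used here do not give the age of the mice, what drove the deletion or when it took place. CTCF regions carry no marker gene expression, so the labelled cell type could not be checked, and the share of other cells was not tested. With 1 library per genotype no test between genotypes was possible, and all intervals given here cover counting error only. Because the second list still held 0.801 times as many regions near protein-coding genes as the control list, that library is called by its label throughout.

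CTCF is a zinc-finger protein that binds insulators and stops the extrusion of chromatin loops by cohesin, so that its sites often bound the domains in which enhancers reach their promoters. Many Fox and Sox genes are developmental regulators controlled by distant enhancers, and several stand alone in regions with few other genes. In the heart, Foxo factors act downstream of insulin and stress signals, Foxc, Foxf and SoxF factors act in vessels and mesoderm, and Sox4, Sox9 and Sox11 act in the outflow tract and valves.

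A few promoters that a CTCF region overlaps are shown first. The region was in both lists at Foxd2 and Lsm11, in the labelled-knockout list alone at Foxa3 and in the control list alone at Fxr2. All of those shown hold a match to letters given below, so they do not stand for every overlapped promoter. Of the 11 control regions near Fox and Sox genes that overlapped a promoter held in the RefSeq promoter table, 3 had the first set of letters in a promoter. Foxd2 holds only the second set. The sequences are the 250 bases before the RefSeq start site, 5′ to 3′ on the strand of the gene, from the RefSeq promoter table of GRCm38.p6. Capitals mark a match to core letters of the known CTCF motif (CC, any 3 bases, AG, any 2 bases, GGC) or to CAGGGGGCGC, on either strand. The second set is one of the 2 longest runs of letters (10 each) that the Foxd2 and Foxa3 promoters share, and was searched for after they had been read, so its presence in both is no result. The Foxd2 promoter (chr4:114908899-114909148, minus strand) was covered in both lists:
Foxd2: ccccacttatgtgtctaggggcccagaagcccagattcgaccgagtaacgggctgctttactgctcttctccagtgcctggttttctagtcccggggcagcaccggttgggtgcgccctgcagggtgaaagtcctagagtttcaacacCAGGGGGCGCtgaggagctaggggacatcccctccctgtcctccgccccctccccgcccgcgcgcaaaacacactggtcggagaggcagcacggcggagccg
The Foxa3 promoter (chr7:19023540-19023789, minus strand) was covered by a region of the labelled-knockout list and by none of the control list, and here the matches to both sets of letters overlap:
Foxa3: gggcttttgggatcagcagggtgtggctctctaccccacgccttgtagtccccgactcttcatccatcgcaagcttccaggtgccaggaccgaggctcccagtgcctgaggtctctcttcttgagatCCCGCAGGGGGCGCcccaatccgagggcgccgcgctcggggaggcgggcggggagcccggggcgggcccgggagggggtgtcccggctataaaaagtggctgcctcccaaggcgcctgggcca
The promoter of Lsm11, a neighbour of Sox30 (chr11:45944936-45945185, minus strand), was overlapped in both lists and has a pair of matches on the opposite strand:
Lsm11: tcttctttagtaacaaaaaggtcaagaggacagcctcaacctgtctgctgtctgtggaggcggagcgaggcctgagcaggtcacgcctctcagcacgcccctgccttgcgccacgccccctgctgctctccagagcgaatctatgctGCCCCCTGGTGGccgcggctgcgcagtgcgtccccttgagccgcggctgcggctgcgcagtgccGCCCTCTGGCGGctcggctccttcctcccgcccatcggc
The promoter of Fxr2, a neighbour of Sox15 (chr11:69632721-69632970, plus strand), was overlapped by a control region with no partner in the other list:
Fxr2: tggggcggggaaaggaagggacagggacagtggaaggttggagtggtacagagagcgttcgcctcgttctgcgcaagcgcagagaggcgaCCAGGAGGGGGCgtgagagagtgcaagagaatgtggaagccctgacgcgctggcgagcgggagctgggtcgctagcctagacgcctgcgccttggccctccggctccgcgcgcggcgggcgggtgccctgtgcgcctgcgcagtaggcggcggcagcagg

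The CTCF core letters stood in 10.1% of all 20085 RefSeq promoters of protein-coding genes on these chromosomes, counted over 300 bases each from 250 before to 50 after the start site. They stood in 32.3% of the 1486 promoters that a control region overlapped and in 8.31% of the others. CAGGGGGCGC stood in 0.697% of all promoters, in 6.33% of the overlapped ones and in 0.247% of the others. A promoter was in the table for 39 of the 59 genes (48 promoters), and 7 of these held the first set of letters, those of Sox12, Sox2, Foxj3, Foxj2, Foxa3, Foxc1 and Foxd1. A match is only a description of the letters. Of these 48 promoters 1 (Foxd2) was overlapped by a control region, where 7.4% of all promoters were.

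The regions near Fox and Sox genes were called in both lists about as often as regions near other genes. Of the 150 control regions, 108 overlapped a labelled-knockout region by at least 1 bp and are called kept (72%, Wilson 95% interval 64.3 to 78.6). The background, the same share over all 18083 control regions within 50 kb of a protein-coding gene, was 69.4%. The other 42 control regions (28%, background 30.6%) are called control-only, meaning that the second list has no overlapping region. In the reverse direction, 13 of 120 labelled-knockout regions had no partner in the control list (10.8%, interval 6.44 to 17.7), beside a background of 13.4%. Near Fox genes 81 of 110 control regions were kept (73.6%, interval 64.7 to 81.0), and near Sox genes 27 of 40 (67.5%, interval 52.0 to 79.9). These intervals overlap and both cover the background. The number of labelled-knockout regions divided by that of control regions was 0.8 near these genes and 0.801 near all protein-coding genes.

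**Figure D1:**
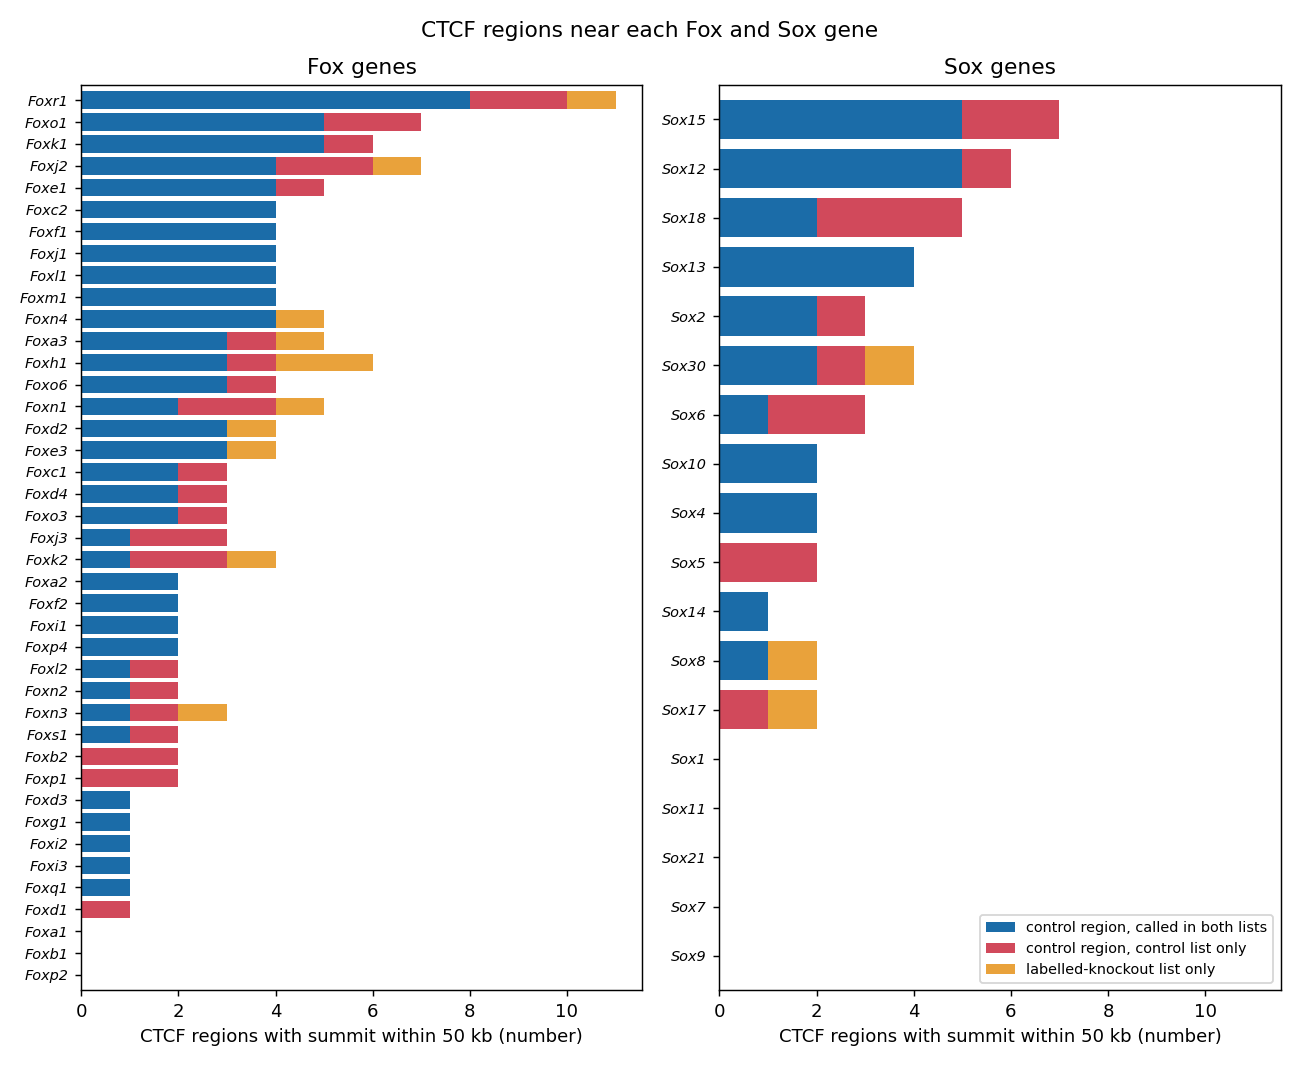
Number of CTCF regions with a summit within 50 kb of each of the 41 Fox genes (left) and 18 Sox genes (right). Bars stack control regions called in both lists, control regions with no partner and labelled-knockout regions with no partner; Foxr1 has 10 control regions and 8 genes have no region of either list.

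The strength of a region in the control list went with whether it was kept. Strength is given as the authors' fold enrichment over a local background. Whether the ChIP library or its input supplied that background was not tested. Strength is also given as the pileup, the number of reads stacked at the summit, recovered from the fold enrichment and its −log10 p. Kept regions near Fox and Sox genes had a median control fold enrichment of 8.03 (3.49 to 20.9) and a median pileup of 17.5 reads. Control-only regions had a median fold enrichment of 5.80 (3.87 to 9.47) and a median pileup of 12 reads. All 28 control regions with a fold enrichment of 10 or more were kept (interval 87.9 to 100%), beside 97.7% of such regions near any protein-coding gene. Under a fold enrichment of 5, 7 of 21 were kept (33.3%), beside 31.7%. Other gene-near regions of the same fold enrichment gave an expected kept share of 71.1% for the 150 regions, against the 72% observed. The lowest local background was 0.846 times as high for the list labelled knockout as for the control list, and the part of depth in the control-only calls was not tested.

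**Figure D2:**
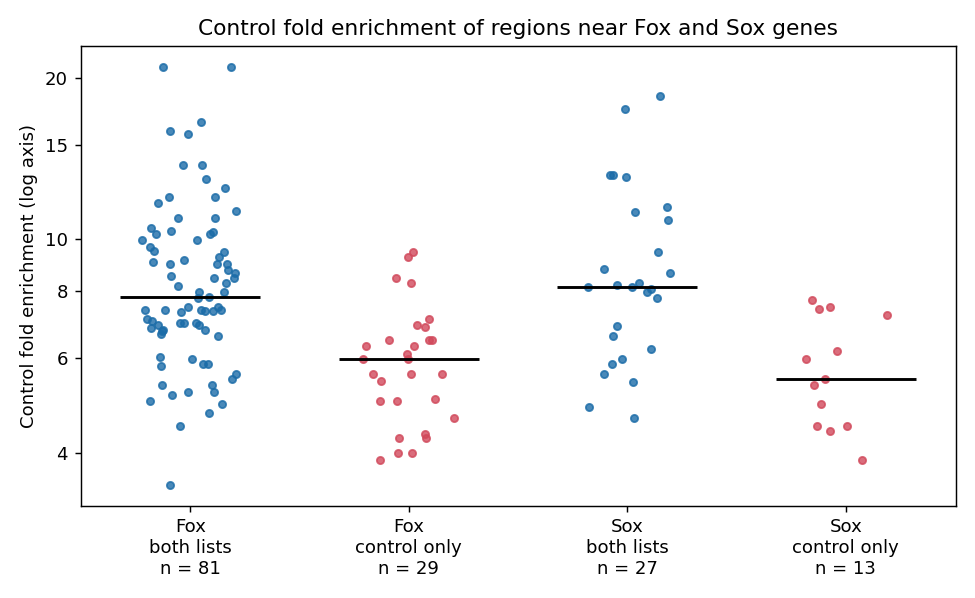
Control fold enrichment (log axis) of each control region near Fox genes (81 kept and 29 control-only) and near Sox genes (27 kept and 13 control-only). Lines are medians: 7.79 and 5.98 for Fox, 8.14 and 5.48 for Sox. The groups overlap, and no control-only region lies above 9.47.

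**Figure D3:**
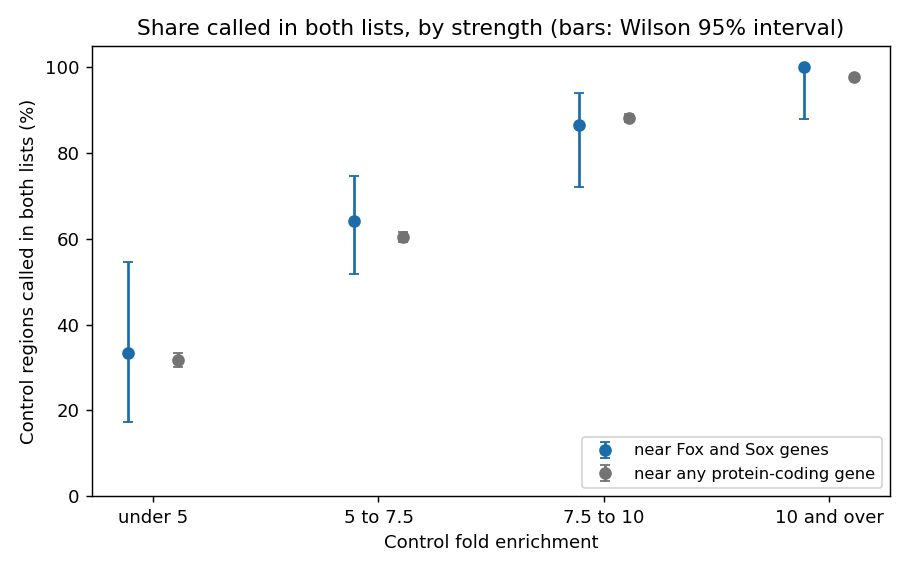
Percent of control regions called in both lists, in 4 classes of control fold enrichment, near Fox and Sox genes (blue) and near any protein-coding gene (grey). Bars are Wilson 95% intervals. The share runs from 33.3% to 100% near Fox and Sox genes and from 31.7% to 97.7% near all genes.

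Most of these regions lay outside the genes themselves. Of 150 summits, 13 were within 1 kb of an end of their closest Fox or Sox gene and 12 were deeper inside it. The other 125 (83.3%) lay outside. The rule makes this likely, since the window adds 50 kb on each side of genes with a median length of 4.46 kb (Fox) and 5.17 kb (Sox). The same shares over all protein-coding genes are not given here, so no trait of these genes is read from them. A member's end was the nearest protein-coding gene end for 67 of the 150 regions (44.7%), and 25 regions (16.7%) lay within 1 kb of an end of some other gene. Of the regions nearest to a member's end 48 of 67 were kept (71.6%), and of those nearest to another gene's end 60 of 83 (72.3%). At gene ends 8 of 13 were kept (61.5%, interval 35.5 to 82.3), inside genes 7 of 12 (58.3%) and outside 93 of 125 (74.4%, interval 66.1 to 81.2). Where both lists were limited to a −log10 q of 5 or more, the share at gene ends was 40% over 10 regions (interval 16.8 to 68.7), beside 72.1% of all gene-near control regions under that limit. Outside the span, 33 of 41 were kept within 10 kb (interval 66.0 to 89.8%). Between 10 and 25 kb 21 of 32 were kept (48.3 to 79.6%), and between 25 and 50 kb 44 of 59 (62.2 to 83.9%). For the 39 genes with a known strand, 37 of 55 upstream regions were kept (67.3%, interval 54.1 to 78.2). Of their downstream regions 28 of 36 were kept (77.8%, interval 61.9 to 88.3). The intervals by distance and by side all cover the background of 69.4%. The same shares over all genes are not given here. At the edge of the window, the farthest region inside was 49.6 kb from Foxn4 (fold enrichment 4.49, kept) and the nearest outside was 50.1 kb from Sox12 (9.97, kept).

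**Figure D4:**
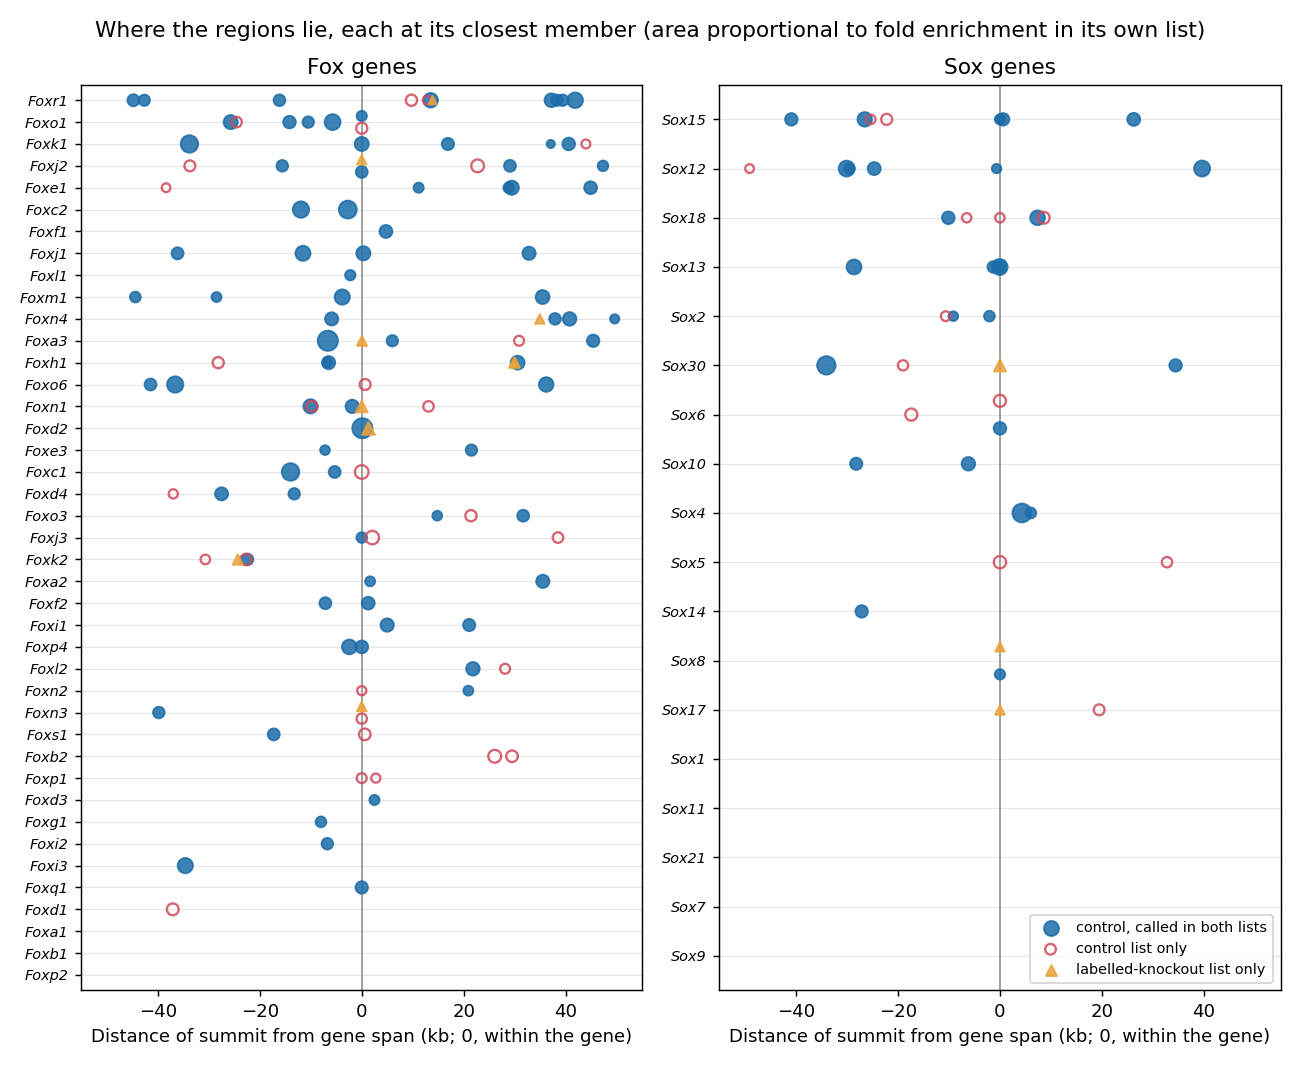
Distance in kb of each region's summit from the span of its closest Fox or Sox gene, negative towards lower coordinates, with symbols at 0 for summits within the gene (spread vertically where several fall there). Filled circles are control regions called in both lists, open circles control-only regions, triangles labelled-knockout regions with no partner; symbol area is proportional to fold enrichment in the region's own list. The large circles, such as those of Foxd2, Foxa3 and Sox4, are filled.

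Among the Foxo genes, Foxo1 and Foxo3 encode factors that insulin signalling keeps out of the nucleus and that drive atrophy, autophagy and antioxidant genes. Foxo1 had 7 control regions with no other protein-coding gene in its window, the highest number after Foxr1 and shared with Sox15, and 5 of them were kept. Of the 7, 5 lay upstream, between 5.72 and 25.7 kb from the gene. The strongest, 5.72 kb upstream (chr3:52262503-52262687), had a fold enrichment of 13.0 and 25 reads in the control list, beside 11.3 and 20 reads in the other. At the start of Foxo1 a pair of weaker regions lay side by side. The one 147 bp from the gene end (6.33, 12 reads) had no partner, and the one 517 bp from it (5.48, 10 reads) had a partner with 8 reads. These calls rest on the overlap of region edges: the summit of that labelled-knockout region lay between the summits of the pair, 174 bp from the first and 196 bp from the second, so neither counts as shared when summits must lie within 100 bp. Of the 42 control-only regions 3, near Foxo1, Foxn1 and Foxk2, had a labelled-knockout summit within 500 bp. Foxo6, mainly known from the brain, had 3 of 4 kept, and its region at the gene end (6.11, 18 reads) was the one without a partner. Near Foxo3 2 of 3 were kept, and all 3 lay upstream of the gene. In this group 10 of 14 regions were kept (71.4%, interval 45.4 to 88.3), beside the background of 69.4%. The same background applies to the groups below, up to Sox15 and Sox30, and the interval of each group covered it. None of these group shares was matched for fold enrichment.

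Foxk1 and Foxk2, repressors of autophagy genes that also regulate glucose use, had 6 and 3 control regions. Near Foxk1 5 of 6 control regions were kept, led by a region 33.8 kb from the gene with a control fold enrichment of 15.7, and of 11.8 in the labelled-knockout list. Inside Foxk1 a kept region had 20 reads in the control, beside 16 in the other list. Near Foxk2 1 of 3 was kept. All 3 were upstream, at the ends of the neighbours Cybc1 and Narf (16, 39 and 343 bp away), with control fold enrichments of 4.65 to 6.98. The counts are too small to set the genes apart, since 6 of 9 over both has an interval of 35.4 to 87.9%.

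The Fox genes of mesoderm and vessels stand in clusters, and 9 of the 10 control regions near them were kept (90%, interval 59.6 to 98.2, background 69.4%). This share was not matched for fold enrichment, so it cannot be compared with the background at equal strength. Foxf1, Foxc2 and Foxl1, which lie close together on chromosome 8, shared 4 control regions, all kept. An end of another gene, Mthfsd, lies between Foxf1 and Foxc2. The strongest (chr8:121113306-121113991), 2.73 kb from Foxc2, had a fold enrichment of 16.6 and 33 reads in the control list, beside 11.9 and 21 reads in the other. The next, between Foxf1 and Foxc2 and 11.9 kb from the latter, had 13.7 and 28 reads in the control, beside 7.10 and 13 reads in the other. The gene end nearest to that region was Mthfsd's, 4.16 kb away. Since the 3 genes share these regions, they count as 1 locus and not as 3.

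Foxq1, Foxf2 and Foxc1 follow each other on chromosome 13 and kept 5 of 6 regions. Foxc1, needed for the outflow tract, coronary vessels and eye, had 2 kept regions and 1 control-only region. The stronger kept one, 13.96 kb upstream (chr13:31792577-31792969), had a fold enrichment of 15.9 and 40 reads in the control list, beside 17.9 and 33 reads in the other. The region inside Foxc1 (chr13:31808213-31808451) was the strongest control-only region of all 150, with a fold enrichment of 9.47 and 18 reads (exact Poisson 95% interval 10.7 to 28.4 reads). Foxq1 had 1 region inside the gene (7.98, kept), and both regions of Foxf2 were kept, 7.13 kb upstream and 1.27 kb downstream.

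The FoxA factors, which open closed chromatin in liver and other endoderm, kept 5 of 6 control regions. The strongest control region by fold enrichment, equal after rounding to that at Foxd2, lay 6.65 kb downstream of Foxa3 (chr7:19006383-19006927) and 128 bp from an end of Irf2bp1. It had a fold enrichment of 20.9 and 41 reads in the control list, beside 18.9 and 39 reads in the other. The Foxa3 promoter printed above lay wholly under a labelled-knockout region (5.48, 10 reads) with its summit 44 bp from the start site. Foxa2 kept both of its regions, 1.64 and 35.5 kb upstream, and Foxa1 had no region of either list in its window.

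The FoxP factors are repressors with roles in heart, lung, brain and lymphocytes. Foxp4 kept both of its regions, 1 inside the gene and 1 2.44 kb downstream with a fold enrichment of 11.3 and 24 reads in the control, beside 13.5 and 31 reads in the other list. Foxp1, a regulator of the developing myocardium, had 2 control regions over a window of 0.697 Mb, and neither had a partner. The one inside Foxp1 had a fold enrichment of 5.04 and 16 reads, and the one 2.76 kb upstream 4.26 and 10 reads. Foxp2 had no region of either list over 0.641 Mb.

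The FoxJ, FoxM and FoxN genes act in cilia, the cell cycle and the thymus. Near them 21 of 29 control regions were kept (72.4%, interval 54.3 to 85.3, background 69.4%). Foxm1, a driver of cell division genes, and Foxj1, the master regulator of motile cilia, each kept 4 of 4. A region lay 318 bp beyond the higher-coordinate edge of Foxj1, whose strand is not known here, so its start and end cannot be told apart. It had a fold enrichment of 10.3 and 20 reads in the control, beside 6.21 and 15 reads in the other list. The region 3.82 kb from Foxm1 had 11.96 and 23 reads in the control, beside 8.54 and 18 reads in the other. Foxn4, a regulator of retinal and spinal interneurons, also kept 4 of 4. Near Foxj2 4 of 6 were kept and near Foxj3 1 of 3. Control-only regions 2.07 kb downstream of Foxj3 (9.25, 18 reads) and 22.7 kb downstream of Foxj2 (8.28, 16 reads) were among the 4 strongest control-only ones near Fox genes. Near Foxn1, the thymic epithelial regulator, 2 of 4 were kept, and a labelled-knockout region inside the gene (7.56, 13 reads) had no control partner.

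The other 16 Fox genes had 38 control regions, 28 of them kept (73.7%, interval 58.0 to 85.0, background 69.4%). The region at the Foxd2 start site (chr4:114908829-114909487) was the widest of these, at 659 bp, and covered the whole promoter printed above. It had a fold enrichment of 20.9 and 42 reads in the control list, beside 9.51 and 26 reads in the other, and its summit lay 124 bp from the start site. The letters CAGGGGGCGC begin 102 bp before that site. A further labelled-knockout region 1.32 kb upstream (8.78, 16 reads) had no control partner and was the strongest of its kind near Fox genes. Foxd2 and Foxe3, a lens regulator, share all 3 of their control regions, and all were kept.

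Foxr1 had the most control regions of all, 10, with 8 kept. None of them had Foxr1 as its nearest gene end: the closest was 9.75 kb away, and the strongest (12.5 in the control and 9.79 in the other list) lay 29 bp from an end of Bcl9l. Foxe1, the thyroid and palate regulator, kept 4 of 5. Foxi1 kept both of its regions. Foxh1, a partner of Smad proteins in Nodal signalling, kept 3 of 4. Of the 3, 2 overlapped the same labelled-knockout region, which therefore counts as the partner of both. Of the 4 labelled-knockout regions near Foxh1, 2 had no control partner, both by Mfsd3 about 30 kb away (5.58 and 4.65). Foxb2 had 2 control regions, 26.1 and 29.5 kb upstream, with 16 and 15 reads, and neither had a partner. Foxb1 had no region of either list.

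Among Sox genes, the SoxC group kept 7 of 8 regions (87.5%, interval 52.9 to 97.8, background 69.4%). Sox4, which acts in the outflow tract and valves, had the strongest region of all Sox genes, 4.30 kb upstream (chr13:28957833-28958311). It had a fold enrichment of 18.4 and 36 reads in the control list, beside 14.2 and 28 reads in the other, and a weaker region 6.04 kb upstream (6.23, 20 reads) was kept as well. Sox4 has no other protein-coding gene in its window. Sox12 kept 5 of 6, led by a region 39.6 kb upstream with 33 reads in the control, beside 30 reads in the other list. Sox12 also had a weak kept region 654 bp downstream of its end (4.65, 11 reads). Sox11 had no region of either list.

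The SoxD genes act in cartilage and, in the case of Sox6, in muscle fibre type. Of their 9 regions 5 were kept (55.6%, interval 26.7 to 81.1, background 69.4%). The counts differed by gene, but 4, 2 and 3 regions are too few to set the genes apart. Sox13 kept 4 of 4, and its strongest region lay 63 bp downstream of its end (chr1:133382055-133382357), with a control fold enrichment of 13.2 over 33 reads and a partner of 9.75 over 19 reads. Sox5 kept none of 2, one inside the gene (7.71, 15 reads) and one 32.8 kb upstream (5.48, 10 reads). Sox6, a repressor of slow fibre genes in skeletal muscle, kept 1 of 3. Its kept region inside the gene had 18 reads in the control, beside 17 in the other list. The control-only region of Sox6 at the gene end had 24 reads (exact Poisson interval 15.4 to 35.7), the highest pileup of any control-only region here, at a fold enrichment of 7.42.

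The SoxF genes act in endothelium, and 2 of their 6 control regions were kept (33.3%, interval 9.68 to 70.0, which covers the background of 69.4%). Sox18 kept 2 of 5. Both of its kept regions had a fold enrichment above 8 in the control list (8.30 and 11.2), and its 3 control-only regions had 4.38, 4.49 and 7.21. Sox17 had 1 control region, 19.4 kb away (5.98, 11 reads), and 1 labelled-knockout region inside the gene (5.17, 9 reads), with no overlap between them. Sox7 had no region of either list, although 3 other genes lay in its window.

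The remaining Sox groups were small. Near the SoxB genes, which act in neural and stem cells, 3 of 4 regions were kept. The 3 regions upstream of Sox2 were weak, between 4.87 and 5.98 in the control list, and the closest, 2.07 kb upstream, had 11 reads in the control, beside 15 reads in the other list. Sox1 and Sox21 had no region of either list. The SoxE genes kept 3 of 3, both regions of Sox10 and a region inside Sox8, while Sox9, the regulator of cartilage and valve matrix, had no region of either list. Sox8 also held a labelled-knockout region with no partner (4.86, 8 reads).

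Sox15 and Sox30 kept 7 of 10 regions. Sox15 had 7 control regions among 11 other genes, and both regions at its own ends were kept. One of these had 13 reads in the control, beside 20 reads in the other list, and the other 22 and 10 reads. The Fxr2 promoter region (6.20, 15 reads) was one of its control-only regions. Sox30, a regulator of late spermatogenesis, had a region 34.0 kb upstream at the Lsm11 promoter with a fold enrichment of 17.4 and 34 reads in the control, beside 13.2 and 33 reads in the other list. A labelled-knockout region inside Sox30 (7.75, 14 reads) had no control partner and was the strongest of its kind near Sox genes.

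Gene by gene, 51 of 59 genes had at least 1 control region in the window (86.4%, interval 75.5 to 93.0), beside 75.7% of all protein-coding genes. Of the others, 8 genes had no region of either list (13.6%, interval 7.03 to 24.5, background 22.5%): Foxa1, Foxb1, Foxp2, Sox1, Sox7, Sox9, Sox11 and Sox21. A control region lay inside the gene or within 1 kb of it for 21 genes (35.6%, background 35.8%), and within 1 kb of an end for 11 (18.6%, background 16.6%). Of the 42 genes with at least 2 control regions, 15 had all kept (35.7%, background 32.3%). Foxb2, Foxp1 and Sox5, 3 of the 42, had none kept (7.14%, background 4.01%). The other 24 had both kinds. Genes of a cluster share regions and so are not independent in these counts.

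The number of regions went with the number of neighbouring genes. The median was 2 control regions per gene both for the 59 genes and for all protein-coding genes, and per Mb of window it was 19.3 against 14.5. The window of a Fox or Sox gene held a median of 1 other protein-coding gene, against 3 for all genes. The 20 genes with no other gene in the window had a median of 9.71 control regions per Mb (0 to 38.5), against 3.63 for all 1963 such genes. Counted per gene and not per Mb, the median was 1 control region in both sets. The 5 genes with 6 or more neighbours had a median of 49.1 per Mb, against 29.6, and of 5 regions per gene, against 4. Spearman's rho between the number of other genes and control regions per Mb was 0.638 over the 59 genes and 0.388 over all 20665, as a description, since all points come from 1 library and clustered genes share windows.

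**Figure D5:**
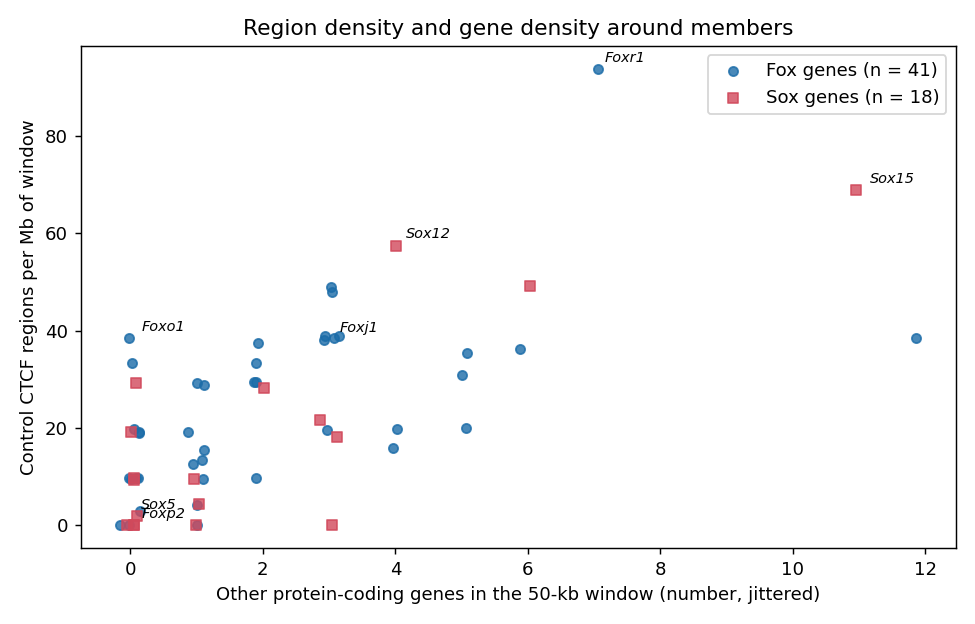
Control CTCF regions per Mb of window against the number of other protein-coding genes in the 50-kb window, for 41 Fox genes (circles) and 18 Sox genes (squares). Foxr1 reaches 93.8 regions per Mb with 7 neighbours, while Foxo1 has 38.5 with none.

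The longest genes had few regions, and a group of genes over 300 kb was formed after this was seen, so no support is drawn from it. Foxn3, Foxp1, Foxp2, Sox5 and Sox6 had at least 1 control region in 4 of 5 cases (background 81.6% of genes over 300 kb), with between 0 and 4.48 control regions per Mb (median 2.87), and all 533 protein-coding genes over 300 kb had a median of 3.91. Near these 5 genes 2 of 9 control regions were kept (22.2%, interval 6.32 to 54.7). Near all genes over 300 kb 62.6% of 1693 were kept, and other gene-near regions with the fold enrichment of the 9 gave an expected 61.9%. The kept ones were 1 inside Sox6 and 1 39.8 kb downstream of Foxn3.

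Regions at promoters formed another small group seen in the data. The promoter table held 16457 of the 20665 protein-coding genes, so a region at a promoter outside it was not counted. Of the 150 control regions 11 overlapped a RefSeq promoter of a protein-coding gene, and 4 of these were kept (36.4%, interval 15.2 to 64.6), beside 68.2% of all 1356 control regions at such promoters. These shares were not matched for fold enrichment, so they cannot be compared at equal strength. The kept ones were at Foxd2, Lsm11, Necap1 and Ccdc84. Those without a partner were at the neighbours Fxr2, Cybc1, Narf, Btf3 (whose region also overlapped the Gm9828 promoter), Pgm5, Rsph6a and Faim, with control fold enrichments from 4.34 to 7.11. Foxd2 was the only Fox or Sox promoter in the table among the 11.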

How the data were processed

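Peak lists of 2 CTCF ChIP-seq libraries (1 control, 1 labelled CTCF knockout, each a pool of 3 hearts) were used, and the input libraries were not analysed here. The submitters' processing notes list MACS2, SAMtools 0.1.19, Bowtie2 2.2.6 and the mm10 build. The sources used here do not give the MACS2 version, threshold or duplicate handling. The authors' deposited lists, called per library, give for each region a score, a fold enrichment (a ratio), the −log10 of p and of q, and a summit. Fold enrichments are the authors' values, ranked within their own list, and no direction is read between the lists.

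Pileups were recovered from fold enrichment (taken as (pileup + 1) / (background + 1)) and the Poisson −log10 p, as whole numbers within 0.001 for 100% of regions in both lists. They ranged from 6 to 272 and 6 to 274 reads. This and the overlap functions were tested on simulated data. The lists give no depth. Regions were shared at an overlap of at least 1 bp, and the expected share used 10 bins of fold enrichment. RefSeq positions and promoters were of GRCm38.p6. The table of gene positions holds no exons.

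The members and lists were chosen with earlier results of these data known. Genes were named by a rule: per family, the 5 members with most control regions and the 4 strongest kept, control-only and labelled-knockout-only regions; members with 2 or more regions of which all or none were kept; members with no region; and the strongest gene-end region per group. Others were named to complete a group. Alternatives were stricter thresholds, other overlap rules, lists of equal length, windows of 10 and 100 kb, strength by −log10 p, and 3 settings added after the data were seen. Values were computed in Python 3.11.15 (pandas 2.3.3, scipy 1.17.1, numpy 2.4.6) and plotted with matplotlib 3.10.9.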

Additional observations from a re-analysis of the deposited data

How the results depend on the processing

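No paired analysis was possible because 1 library stood for each genotype, and for the same reason no library could be left out. The settings with a pileup of at least 15 reads, with nearest gene ends and with genes up to 300 kb were chosen after the data were examined. Of 131 recomputed main values 106 stayed within counting error (shares and ratios) or within 1.5 times (counts and medians of regions). Some of the 106 could not move, so this number overstates stability. Other overlap rules leave the numbers of regions unchanged, and other windows leave the regions at gene ends and inside genes unchanged. The kept share was 63.3% with a reciprocal overlap of at least 50% (background 60.0%) and 87.6% with a pileup of at least 15 reads (background 90.8%). Over the other settings it lay between 68% and 77.6%. Under the same 2 settings it was 63.6% and 89.1% near Fox genes and 64.8% and 92% outside genes, and the expected share was 61.5% and 90.5%. Near Sox genes it was 84% with the pileup limit. With a window of 10 kb the kept share outside genes was 82.4%, and with lists of equal length the expected share was 79.2%. The labelled-knockout-only share was 20.8% with reciprocal overlap (background 25.1%), 19.2% with lists of equal length (19.9%) and 1.61% with the pileup limit (2.66%), so these shifts went with those over all gene-near regions. The numbers of control and labelled-knockout regions were 59 and 50 within 10 kb, 236 and 193 within 100 kb, 89 and 62 with the pileup limit, and 67 and 55 with a member's end nearest. The median number of control regions per gene was 1 within 10 kb, 4 within 100 kb and 1 with a member's end nearest. Fewer regions enter under the smaller window and the limits. The cause of the other shifts was not tested. Shares of single gene groups rest on 3 to 38 regions and moved in 26 of 130 recomputations. With 7 to 24 reads behind a control-only region, a lower signal and an absent one could not be told apart.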
